A study of Mus musculus with 196 samples.

Results

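Tail skin was compared with dorsal (back) skin of the same mouse in the 82 mice that had an array of each, leaving out mice whose back skin was in anagen, when follicles grow. Mice were matched by the number in the sample name, which gave 164 arrays of 196 in the series and 82 mice of 100, 39 females and 43 males. All mice were untreated, 8 weeks old and from an interspecific backcross: FVB/N females had been crossed with Mus spretus males, and the F1 females were then mated with FVB/N males. Every animal therefore carried its own mixture of FVB/N and spretus alleles, and both skins of a mouse shared its genotype, sex and age. Dorsal skin had been shaved, both skins were snap frozen whole, and 1 ug of total RNA was labelled for each array. In whole skin, fewer cells of a type and less RNA per cell cannot be told apart.

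Back and tail skin of the mouse are built differently. Dorsal skin is thin and densely haired, with follicles that cycle in waves, dendritic epidermal T cells between the keratinocytes and a sheet of skeletal muscle, the panniculus carnosus, beneath the dermis. Tail skin carries rows of scales, which are cornified in a manner unlike the interscale epidermis, has sparse follicles in groups between the scales, holds pigment cells in its epidermis and lies on the tendons of the tail. Position along the body axis is recorded in skin by Hox genes, transcription factors in 4 clusters whose low-numbered members are active toward the head and high-numbered members toward the tail.

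A value here is a log2 expression level, so a difference of 1 is a factor of 2. A gene was called when its mean tail minus back difference was at least 1 in size with an adjusted p under 0.05 (limma on the within-mouse differences, Benjamini-Hochberg over 18820 genes). By this rule 746 genes (3.96%) were higher in tail skin and 383 (2.04%) lower. Counts of called members of gene lists below are to be read against these shares. The size limit carried the selection, because 8269 genes (43.9%) were higher and 8209 (43.6%) lower on the adjusted p alone. Every tail array lay above every back array for 332 genes (1.76%) and below for 96 (0.510%), and the tail was above the back in each of the 82 mice for 1306 genes (6.94%) and below in each for 377 (2.00%). The 746 higher against 383 lower depended on scaling: after shifting each array to a common median the counts were 491 and 626, and with quantile normalization 537 and 530. The shift moved the median difference of all genes from -0.001 to -0.208, and no gene called here was called in the opposite direction under either.

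Back arrays were in batches 1 and 2 and tail arrays in batches 3 and 4, and the batch and the tissue cannot be told apart. Within that limit, 72 mice had a back array of batch 1 with a tail array of batch 4, 7 had batches 2 and 4, and 3 had batches 2 and 3. The mice with a back array of batch 1 and a tail array of batch 4 alone gave 742 genes higher and 384 lower, and the 10 mice with a back array of batch 2 gave 790 and 390. The median of an array's values was 5.67 to 6.003 in back and 5.82 to 6.03 in tail skin, no array was a copy of another, and each array correlated at 0.965 or above with the median profile of its tissue. As a gauge of the low end, 3 Y-linked genes in females read between 3.20 and 4.63 on average, so levels of that order may be near the background of a probe set. The hair cycle labels could be checked on Krt71, a keratin of the inner root sheath of growing hair. It ran from 4.50 to 6.52 in the 82 non-anagen back arrays and from 6.84 to 12.69 in the 14 anagen back arrays left out. Krt25 did not overlap either (4.23 to 6.56 against 7.10 to 12.53). Krtap15, a keratin-associated protein gene, did overlap, at 3.24 to 6.35 in non-anagen and 4.38 to 12.31 in anagen backs.

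**Figure D1:**
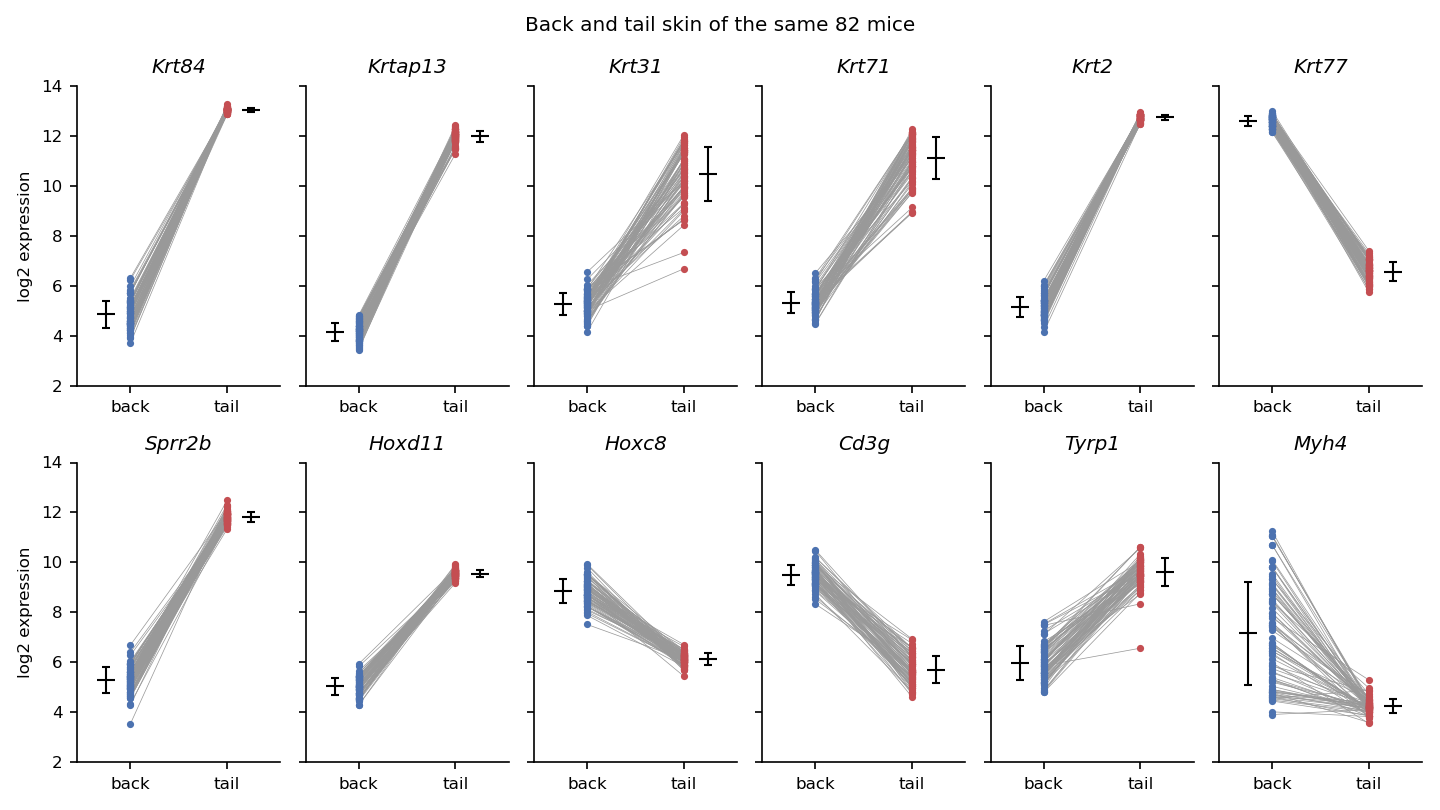
Log2 expression of 12 genes in back (blue) and tail skin (red), with a grey line for each of the 82 mice and the mean and SD of each tissue beside the points. Krt84, Krtap13, Krt2, Krt77 and Hoxd11 separate the tissues with little spread, Krt31 and Krt71 vary between tails, and Myh4 varies between backs.

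Hard keratins, which with their associated proteins build hair shafts and other hard cornified structures, showed the largest increases in tail skin. Backs were chosen as non-anagen, whereas tails were not chosen by hair cycle stage. For genes of growing or resting follicles, here and below, stage and body site therefore cannot be told apart. In the 14 anagen backs left out, the median was 10.71 for Krt71 and 10.54 for the keratin-associated protein gene Krtap15. All 10 measured members of the list of scale and shaft keratins were called higher, with a median difference of 4.53 against -0.001 over all genes. Krt84 ran from 3.71 (median 4.78) to 6.32 in back skin and from 12.86 (median 13.05) to 13.27 in tail skin. It was higher by 8.18 ± 0.56 (SD over 82 mice; adjusted p = 5.53e-99), the largest difference of all genes. The tail values of Krt84 had an SD of 0.07 and lay near the highest value in these arrays, 13.83.

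Krt36 behaved alike, at 3.87 to 5.703 (median 4.82) in back and 12.18 to 12.78 (median 12.52) in tail skin, a difference of 7.67 (limma adjusted p = 1.2e-112). Krt31, a shaft keratin, was at 4.16 to 6.55 (median 5.30) in back skin but anywhere from 6.69 to 12.04 (median 10.63) in tail skin. The same wide range of tail values was seen in Krt33a (6.86 to 12.34, difference 5.54), Krt86 (6.498 to 11.82, difference 5.12) and Krt35 (5.87 to 10.37, difference 3.93). Within the list, therefore, Krt84 and Krt36 were at nearly constant tail levels while the other 8 varied between mice by SDs of the difference from 0.76 to 1.34. Krt39, another hard keratin, was at 9.04 to 11.22 in tail against 3.76 to 5.80 in back skin (difference 5.38).

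Keratin-associated proteins, the sulfur-rich or glycine- and tyrosine-rich matrix between the keratin filaments, moved as a family. Of 45 measured Krtap genes, 43 were called higher and none lower, 29 of them with every tail array above every back array, and the median difference was 4.69. The exceptions were Krtap31-1 (0.39) and Krtap31-2 (0.82), both short of the size limit. Krtap13 was at 3.44 to 4.83 (median 4.19) in back and 11.29 to 12.44 (median 12.03) in tail skin, higher by 7.84 (limma adjusted p = 2.69e-106). Krtap6-1 was higher by 7.58, Krtap7-1 by 7.32, Krtap8-1 by 7.26, Krtap15 by 6.81 and Krtap21-1 by 6.65, all without overlap. The gene models 2310057N15Rik (7.84), 2310079G19Rik (7.09), 2310034C09Rik (6.97) and Gm10228 (6.72), all on chromosome 16, were as large. Members of such families resemble each other, and a probe set may read more than its named gene.

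Because this family moved together, the sequence just before its transcription starts was read from RefSeq promoters (build GRCm38.p6). The stretches below are the 100 bases before the start on the gene's strand, shown for Krtap6-1, Krtap8-1 and Krtap13, for Sprr2b as the largest increase in the cornified envelope list, and for the keratins Krt84 and Krt77, which moved furthest up and down, and for Ifitm6 as another large decrease. Capitals mark TATAAA between 50 and 11 bases before the start, the core of the TATA box that positions transcription at many highly expressed genes.
Krtap6-1, chr16:89031599-89031698, plus strand: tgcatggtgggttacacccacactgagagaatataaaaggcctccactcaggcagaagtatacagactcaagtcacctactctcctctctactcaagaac
Krtap8-1, chr16:89487953-89488052, minus strand: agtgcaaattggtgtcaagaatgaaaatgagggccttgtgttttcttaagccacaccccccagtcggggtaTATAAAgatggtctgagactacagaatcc
Krtap13, chr16:88751629-88751728, minus strand: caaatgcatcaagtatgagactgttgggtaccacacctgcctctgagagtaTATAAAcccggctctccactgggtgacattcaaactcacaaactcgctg
Sprr2b, chr3:92316605-92316704, plus strand: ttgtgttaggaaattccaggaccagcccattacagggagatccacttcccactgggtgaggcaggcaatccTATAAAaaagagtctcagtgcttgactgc
Krt84, chr15:101532821-101532920, minus strand: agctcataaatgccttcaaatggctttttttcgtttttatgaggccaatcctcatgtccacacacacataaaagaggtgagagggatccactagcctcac
Krt77, chr15:101869706-101869805, minus strand: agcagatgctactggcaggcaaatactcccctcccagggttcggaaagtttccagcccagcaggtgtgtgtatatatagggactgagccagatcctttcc
Ifitm6, chr7:141016893-141016992, minus strand: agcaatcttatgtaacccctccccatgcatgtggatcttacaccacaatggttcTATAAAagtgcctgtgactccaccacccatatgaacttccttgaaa

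The motif starts 29 bases before the start in Krtap8-1 and Sprr2b, 49 bases before in Krtap13 and 46 bases before in Ifitm6, which was lower in tail skin. These exact letters are absent from that window in Krtap6-1, Krt84 and Krt77. Searched on both strands, TATAAA was in the window of 63.4% of 41 Krtap genes with a promoter sequence and 38.9% of 36 Krt genes, against 4.16% of 14749 measured genes and 3.15% of all 32851 promoters. Among genes called higher in tail skin 15.6% of 553 held it, and 10.5% of 495 once Krt and Krtap genes were left out. Among genes called lower 4.59% of 283 held it, close to the share of all measured genes. These shares are descriptions, and genes in a cluster of copies share sequence.

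The inner root sheath, which moulds the growing shaft, was represented by 12 genes, of which 10 were called higher in tail skin (median difference 3.19). Krt71 was at 4.50 to 6.52 (median 5.29) in back and 8.93 to 12.26 (median 11.33) in tail skin, higher by 5.80 (limma adjusted p = 2.8e-68). Krt25 was higher by 5.85, Krt27 by 4.45 and Krt73 by 4.39, with no overlap, and trichohyalin, Tchh, which hardens sheath and medulla, by 3.54 with overlap. Krt75, a keratin of the companion layer beside the sheath, differed by only 0.53 and overlapped between tissues.

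Of 24 regulators and structural genes of the hair matrix and shaft, 8 were called higher and none lower. Prr9, a proline-rich protein, was at 4.24 to 8.12 in back and 9.80 to 11.51 in tail skin (difference 4.68), and S100a3, a calcium-binding protein of the cuticle, was higher by 3.93. The transcription factors Foxn1, lost in nude mice, and Hoxc13, which drives hair keratin genes, were higher by 2.44 and 2.37, each without overlap. In the mitotic cell cycle list, all 23 members were higher on the adjusted p alone, against 43.9% of all genes, with a median of 0.79. Only 4 passed the size limit, the spindle checkpoint kinase Bub1 (1.47), Aurkb (1.29), Kif11 (1.10) and Birc5 (1.01), and the count was 2 under either scaling. Kif11 was at 0.71 as the mean of its probe sets, and Birc5 at 0.77 in the 10 mice with a back array of batch 2.

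Some genes of resting follicle stem cells ran the other way. Of 23 genes of the bulge and upper follicle, 4 (17.4%, against 2.04% of all genes) were called lower and 1 higher, and the list's median was -0.25. Under either scaling 7 were called lower. Krt15 was at 10.97 to 12.14 (median 11.67) in back and 9.40 to 10.81 (median 10.16) in tail skin, lower in all 82 mice without overlap (-1.49). Fgf18, a growth factor of resting follicles, was at -1.77, the transcription factor Lhx2 at -1.19 and the Wnt co-receptor Lgr6 at -1.03, each with overlap. In males alone Lgr6 was at -0.96 and not called. Krt24 was the exception at 6.20 to 9.47 in back and 12.10 to 12.67 in tail skin (difference 4.37).

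Within the interfollicular epidermis, keratins moved in both directions. Of 12 epidermal keratins 2 were called higher and 3 lower, and the list's median was 0.03. Krt2, a type II keratin of upper epidermal layers, was at 4.15 to 6.21 (median 5.11) in back and 12.47 to 12.96 (median 12.75) in tail skin, higher by 7.59 ± 0.42 (SD over 82 mice; limma adjusted p = 1.97e-106). Krt77, also type II, was at 12.15 to 13.01 (median 12.66) in back and 5.75 to 7.41 (median 6.61) in tail skin, lower by 6.04 (-6.04 ± 0.39; limma adjusted p = 5.36e-101). Neither gene overlapped between tissues, and the level of Krt77 in back skin was close to that of Krt2 in tail skin on scales that differ between probe sets.

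The general keratins of the epidermis stayed near each other in both skins. Krt5 differed by 0.12, Krt14 by 0.57, Krt1 by 0.31 and Krt10 by -0.06, all short of the size limit. Krt23 was lower at -1.41. The keratins of stressed epidermis Krt16 and Krt6b were higher by 2.03 and 1.96, but their tail values spread from 6.07 to 11.37 and from 5.68 to 12.28.

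The cornified envelope, the protein shell that replaces the membrane of dying keratinocytes, was partly higher: 11 of 27 members were called higher and 1 lower (median 0.59). Sprr2b, a small proline-rich envelope protein, was at 3.55 to 6.70 (median 5.33) in back and 11.34 to 12.48 (median 11.81) in tail skin (6.52; limma adjusted p = 2.03e-91). Sprr2d was higher by 4.57, Sprr1b by 4.47, Sprr2a1 by 3.25 and repetin, Rptn, by 2.33. Flg2, a filaggrin-like protein of the granular layer, went down without overlap, from 10.80 to 12.10 in back to 8.38 to 10.34 in tail skin (-2.20).

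Enzymes that crosslink the envelope followed the same split. Tgm3 was higher by 3.74, Tgm6 by 3.51 and Tgm1 by 1.30, each without overlap, while Tgm7 was at 5.17 to 8.11 in back and 3.87 to 4.997 in tail skin (-2.08). Of 21 genes of barrier lipid synthesis 6 were called higher and 1 lower. The lipoxygenase Alox8 rose from a median of 5.71 to 9.09 (3.35), and the lipase Pnpla1 and the retinol dehydrogenase family member Sdr9c7, both needed for the lipid envelope, were higher by 1.35 and 1.36 without overlap. Lipn, an epidermal lipase, was lower at -2.11.

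Proteases that shed the outer layers and their inhibitors had 11 of 28 members called higher and none lower. Serpinb3d, a serpin of squamous epithelia, was at 3.54 to 5.90 (median 4.74) in back and 9.12 to 11.80 (median 10.83) in tail skin (5.96; limma adjusted p = 1.86e-74). Serpinb13, not in that list, was higher by 5.20, Serpinb3a by 4.76, the cystatin family members Stfa3 by 3.92 and Stfa1 by 3.28, Serpinb12 by 2.68 and the kallikrein Klk13 by 2.46. In the interleukin 1 family 3 of 14 members were higher and 1 lower. Il1f6, which encodes the alarm cytokine interleukin 36 alpha, was at 5.01 to 9.90 (median 6.25) in back and 8.54 to 11.24 (median 9.93) in tail skin (3.57).

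Among antimicrobial and related secreted proteins 5 of 16 were called higher. The nicotinic receptor ligands Slurp1 and Slurp2 were higher by 2.83 and 4.39, both without overlap. The beta-defensin Defb3 was higher by 2.27 in 81 of 82 mice, but its tail values spread from 4.70 to 11.29 and its SD over mice was 1.66. Of 30 junction genes 5 were called higher, and 3 under either scaling. The gap junction proteins connexin 26 (Gjb2) and connexin 30 (Gjb6) led them, with Gjb2 at 6.02 to 8.38 (median 7.34) in back and 10.60 to 11.94 (median 11.25) in tail skin (3.93; limma adjusted p = 8.79e-79) and Gjb6 higher by 3.57. Olah, which releases medium-chain fatty acids from fatty acid synthase, was at 3.48 to 5.41 in back and 10.05 to 11.29 in tail skin (6.42), and the secreted whey acidic protein family member Wfdc18 was higher by 5.33.

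**Figure D2:**
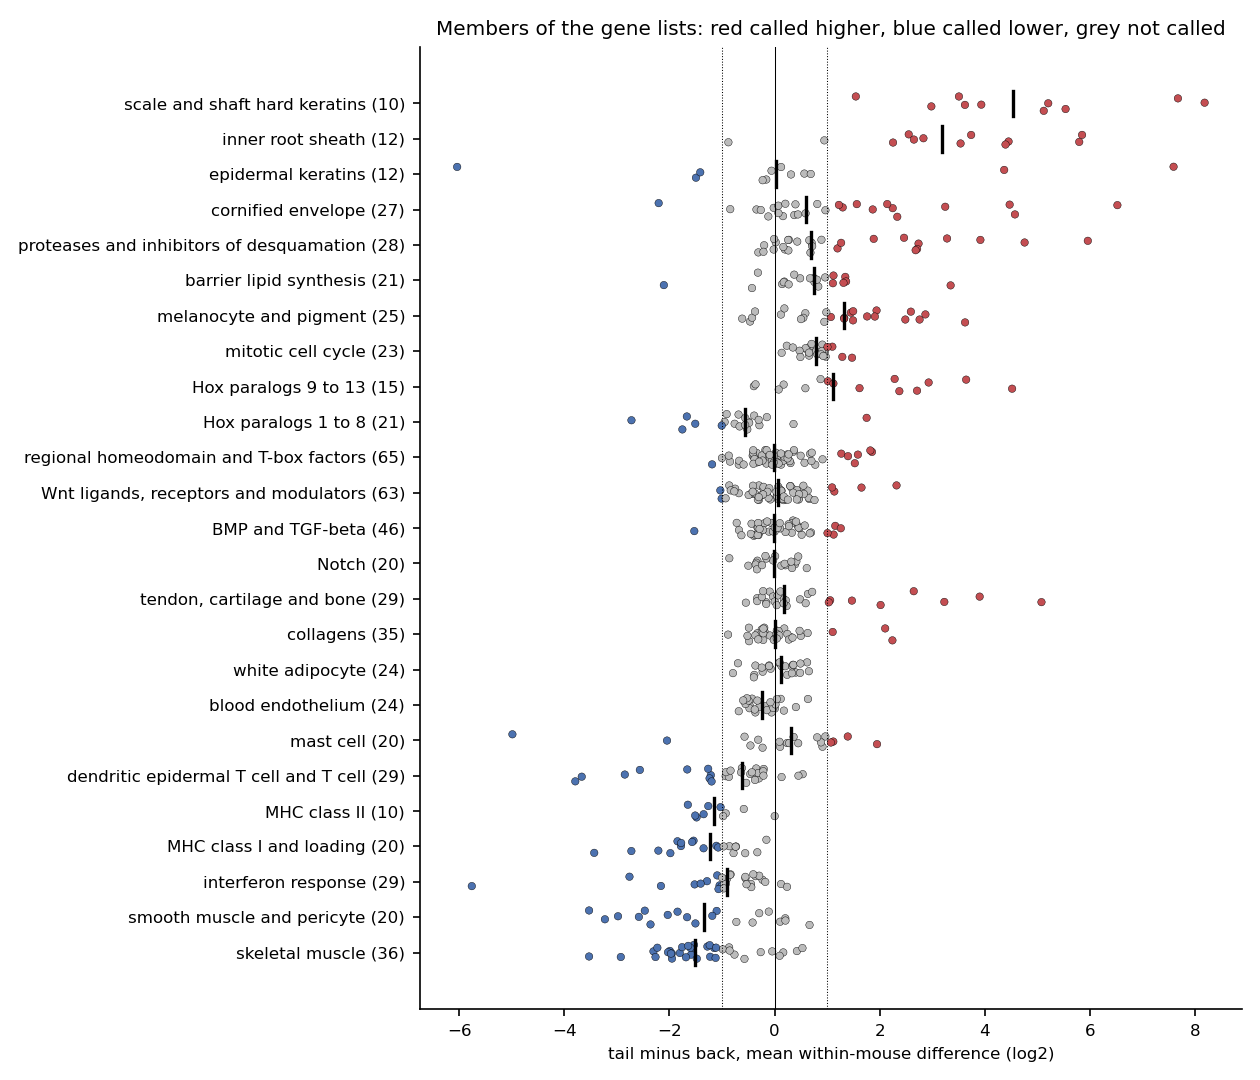
Mean tail minus back difference (log2) of each measured member of 25 gene lists, with the number of members in brackets, the list median as a black bar and dotted lines at the size limit of 1 in each direction. Hard keratins and inner root sheath lie to the right, muscle, MHC and T cell lists to the left, and adipocyte, blood endothelium and Notch lists have no called member.

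Pigment genes were higher as a group. Of 25 melanocyte genes 14 were called higher and none lower, with a median of 1.32. Tyrp1, an enzyme of melanin synthesis, was at 4.81 to 7.63 (median 5.91) in back and 6.57 to 10.63 (median 9.61) in tail skin (3.62; limma adjusted p = 5.39e-56). The melanosome exchanger Slc24a5 was higher by 2.87, tyrosinase, Tyr, by 2.76, the fibril protein Pmel by 2.59 and Dct by 2.49. A single tail array of Tyrp1 lay within the range of the backs, and the next lowest was at 8.35. The mean over the list was 5.82 to 6.62 in back and 6.14 to 7.84 in tail skin, higher in 81 of 82 mice.

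Hox genes separated the skins by paralog number. Of 15 measured genes of paralog groups 9 to 13, 9 were called higher in tail skin and none lower (median 1.12), and of 21 genes of groups 1 to 8, 5 were called lower and 1 higher (median -0.56). Hoxd11 was at 4.29 to 5.94 (median 5.03) in back and 9.19 to 9.93 (median 9.56) in tail skin, higher by 4.52 ± 0.41 (SD over 82 mice; limma adjusted p = 1.34e-88). Hoxc12 was higher by 3.64, Hoxd10 by 2.93, Hoxa9 by 2.71, Hoxc13 by 2.37 and Hoxd9 by 2.29, each without overlap. Hoxa10 (1.02) fell below the size limit under either scaling (0.81 and 0.90) and Hoxb13 (1.12) after the shift of medians (0.91).

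In the opposite direction, Hoxc8 was at 7.52 to 9.94 (median 8.84) in back and 5.45 to 6.71 (median 6.13) in tail skin (-2.72; limma adjusted p = 1.68e-59). Hoxa5 was at -1.75 and Hoxc6 at -1.67, also without overlap, and Hoxa2 was at -1.51. The switch between directions came at different numbers in the clusters. In the Hoxd cluster the paralog 8 gene was already higher (Hoxd8, 1.75, from 5.62 to 7.83 in back to 8.19 to 9.05 in tail skin), whereas in the Hoxc cluster paralog 8 was the lowest and Hoxc10 (0.08) was the last before the increases of Hoxc11 (1.62) and Hoxc12. Hoxd12 (-0.36) stood apart from its neighbours.

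**Figure D3:**
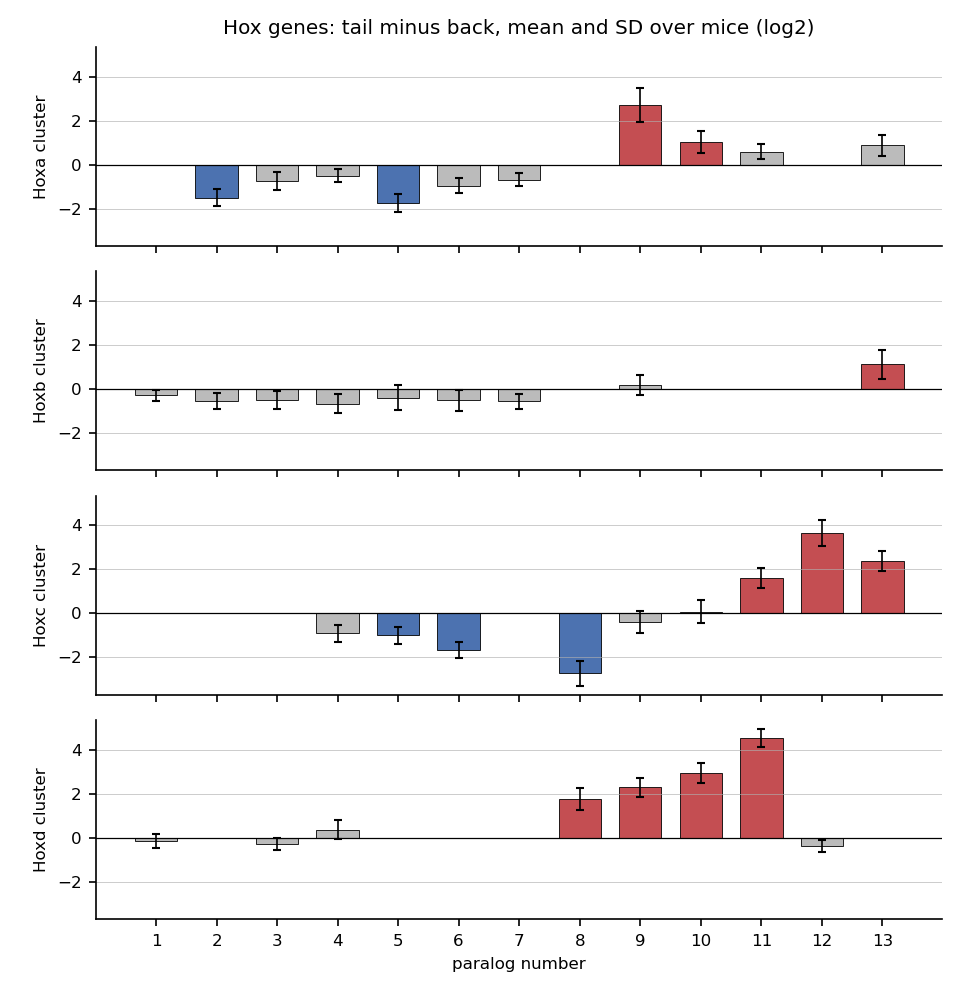
Mean tail minus back difference (log2, bars) with its SD over the 82 mice for each measured gene of the Hoxa, Hoxb, Hoxc and Hoxd clusters, by paralog number; red was called higher, blue lower and grey neither. Hoxd genes are higher from number 8 to 11 and Hoxc genes from 11 to 13, and the lowest bar is Hoxc8.

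Among other regional transcription factors more were called higher than lower. Of 65 homeodomain and T-box genes 6 (9.23%) were called higher and 1 (1.54%) lower, against 3.96% and 2.04% of all genes. Under either scaling 4 were lower. The 4 Dlx genes Dlx2 (1.85), Dlx3 (1.82), Dlx1 (1.59) and Dlx5 (1.53), which pattern limbs and appendages, were each above every back array. Dlx3 was at 5.95 to 8.14 (median 7.29) in back and 8.25 to 9.88 (median 9.02) in tail skin. Irx4 (1.40) and Msx2 (1.27) were also higher, and Zic1 (-1.19), which marks dorsal mesoderm, was lower in 76 of 82 mice, with -0.90 and no call in the 10 mice with a back array of batch 2.

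Among signalling pathways, shares of called genes were read against 3.96% higher and 2.04% lower over all genes. Of 63 Wnt genes 4 (6.35%) were higher and 2 (3.17%) lower, which became 2 and 5 under either scaling. The ligand Wnt4 was at 6.26 to 8.03 (median 7.14) in back and 8.16 to 9.18 (median 8.75) in tail skin (1.65; limma adjusted p = 5.6e-52). The secreted modulator Sfrp4 was higher by 2.32, while Sfrp2 (1.14) and the inhibitor Wif1 (1.09) dropped below the limit under either scaling. The receptor Fzd2 was at -1.01, and at -0.95 in the 10 mice with a back array of batch 2, where Sfrp2 was at 0.81.

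Of 46 genes of BMP and TGF-beta signalling 4 (8.70%) were higher and 1 (2.17%) lower, with 1 higher after the shift of medians. The BMP antagonist Grem1 was at 7.71 to 9.63 (median 9.0015) in back and 6.68 to 8.31 (median 7.46) in tail skin (-1.53), and the pseudoreceptor Bambi was higher by 1.26. In the FGF and EDA list of 28, Fgf22, a keratinocyte growth factor, was higher without overlap (1.76) and Fgf18 lower. The hedgehog inhibitor Hhip was the single call among 14 genes of its pathway (1.27), but it is dim, and in the 10 mice with a back array of batch 2 its difference was 0.67 and not called. In the EGF family 2 of 13 were higher, Hbegf (1.24) and Ereg (1.04), of which Ereg lost its call under either scaling (0.84 and 0.80). None of 20 Notch genes was called in either direction, with 9 higher and 9 lower on the adjusted p alone.

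Some tendon and matrix genes were higher in tail skin. Of 29 genes of tendon, cartilage and bone 8 were called higher and none lower, with a median of 0.18. Prg4, the lubricating protein lubricin, was at 3.38 to 5.07 (median 4.11) in back and 4.90 to 11.30 (median 9.71) in tail skin (5.08), and Chad, a cartilage matrix protein, at 4.28 to 5.89 in back and 4.85 to 11.61 (median 9.48) in tail skin (3.90). Prg4 and Chad varied widely between tails, with SDs of the difference of 1.69 and 1.72. The tendon proteins Thbs4 (3.23), Fmod (2.65), Tnmd (2.02) and Comp (1.47) were higher too. Of the 3 defining tendon markers, Tnmd and Chad were called higher. Scx was lower on the adjusted p alone and was not called. The defining markers of cartilage and bone, 3 of each, had no called member.

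Col1a1, the main dermal collagen, was at 9.78 to 12.61 (median 11.63) in back and 10.60 to 12.42 (median 11.56) in tail skin (0.04; limma adjusted p = 0.56). Of 35 collagens 3 (8.57%, against 3.96% of all genes) were called higher and none lower, Col14a1 (2.24) and Col12a1 (2.10), which coat fibrils, and Col8a1 (1.11), which lost its call under either scaling. The crosslinking enzyme Lox was higher by 2.28 and the microfibril protein Mfap5 by 2.10. None of 24 white adipocyte genes and none of 24 blood endothelial genes was called; Adipoq differed by -0.38 and Pecam1 by -0.43.

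Muscle genes were lower. Of 20 smooth muscle and pericyte genes 12 were called lower and none higher, 10 of them lower in every mouse. Myh11, the smooth muscle myosin, was at 8.18 to 10.34 (median 9.79) in back and 5.31 to 7.53 (median 6.42) in tail skin (-3.23; limma adjusted p = 6.61e-61). Des was at -3.53, Cnn1 at -2.98, Kcnmb1 at -2.58, Actg2 at -2.47 and Acta2 at -2.03. Backs and tails of the 82 mice did not overlap for Myh11 or Synpo2 (-2.36), and did for the others.

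Skeletal muscle differed in kind. Of 36 genes 25 were called lower and none higher (median -1.505), but the median SD of the difference was 1.67, against 0.336 over all genes, and only 1 member was lower in every mouse. Myh4, a fast myosin, was at 3.92 to 11.25 (median 6.88) in back and 3.56 to 5.30 (median 4.22) in tail skin (-2.92; limma adjusted p = 6.83e-23). Acta1, skeletal actin, ranged from 5.91 to 12.43 in back and from 5.45 to 11.20 in tail skin and was higher in the tail of 16 mice. The mean over the list spanned 5.09 to 9.81 in back and 4.72 to 8.52 in tail skin. Of the 20 called genes above the brightness filter with the widest spread over mice, 15 were skeletal muscle genes. How much muscle a dorsal piece held is not given in the labels, and its part in these differences was not tested.

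**Figure D4:**
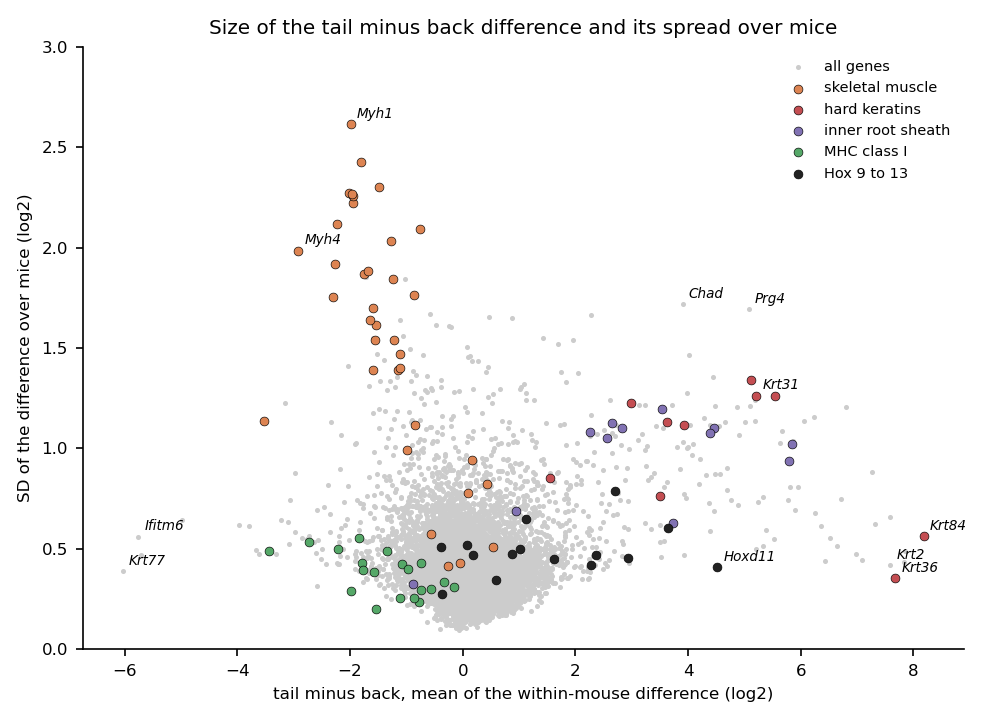
Mean tail minus back difference (log2) of every gene against the SD of that difference over the 82 mice, with 5 lists coloured. Skeletal muscle genes have means near -2 with SDs up to 2.62 (Myh1), while Krt84, Krt36, Krt2, Krt77 and Hoxd11 combine large means with SDs of 0.35 to 0.56.

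T cell genes were lower in tail skin. Of 29 genes of dendritic epidermal T cells and other T cells 9 were called lower and none higher, 7 of the 9 in all 82 mice and 4 of them below every back array. Cd3g, a subunit of the T cell receptor complex, was at 8.34 to 10.50 (median 9.54) in back and 4.61 to 6.93 (median 5.65) in tail skin (-3.79; limma adjusted p = 3.48e-68). Cd7 was at -3.67, Trat1 at -2.85, Cd3e at -2.56 and the interleukin 2 receptor chain Il2rb at -1.66. Trat1 and Il2rb reached only dim levels, and with dim genes left out 4 of the 9 remained called.

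Further genes of these cells outside the list had the same direction. Trgv1, a gamma chain variable segment, was at 6.12 to 7.82 in back and 3.80 to 5.52 in tail skin (-2.50), Nkg7 at -2.97, Il12rb2 at -3.10, Il18r1 at -2.52 and Ikzf2 at -2.22, all without overlap. Of the 6 measured Skint genes, keratinocyte products whose founding member is needed for the development of dendritic epidermal T cells, 3 were called lower and none higher: Skint10 (-3.32), Skint2 (-1.90) and Skint11 (-1.09). Skint10 was at 7.96 to 10.13 (median 9.21) in back and 4.84 to 7.03 (median 5.87) in tail skin. These genes were picked after their values had been seen.

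Antigen presentation was lower as well. Of 20 genes of MHC class I and its peptide loading 12 were called lower and none higher, with a median of -1.23, and 9 lay below every back array. H2-Q6 was at 7.91 to 10.38 (median 9.14) in back and 4.92 to 6.39 (median 5.72) in tail skin (-3.43; limma adjusted p = 1.33e-72). H2-M2 was at -2.72, the immunoproteasome subunit Psmb8 at -2.21, H2-K1 at -1.98, the class I activator Nlrc5 at -1.57 and the shared light chain B2m at -1.54, from 11.88 to 12.73 in back to 10.32 to 11.33 in tail skin. H2-Q genes are close copies and may share probes.

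Of 10 MHC class II genes 6 were called lower, among them H2-Ab1 (-1.65), the invariant chain Cd74 (-1.51) and H2-Aa (-1.48). H2-Ea ran from 6.32 to 11.84 in back and from 5.48 to 10.07 in tail skin, yet its difference of -1.26 had an SD of only 0.57. That SD was 0.249 of the SD expected had the arrays not been paired, the lowest such ratio among called genes above the brightness filter, against a median of 0.961 over all genes. In the 10 mice with a back array of batch 2 its difference was -0.67. Of 27 Langerhans, macrophage and dendritic cell genes 2 (7.41%) were called higher and 1 (3.70%) lower, against 3.96% and 2.04% of all genes. The Langerhans cell marker Cd207, the 1 called of 2 such markers, was at 6.68 to 9.04 in back and 5.06 to 6.54 in tail skin (-1.71). The receptors Lyve1 (1.68) and Mrc1 (1.21) were higher, Mrc1 not after quantile normalization (0.99) or in males alone (0.97). Mrc1 was the 1 called of 3 macrophage markers, of which 2 were higher and 1 lower on the adjusted p alone.

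Of 29 interferon response genes 10 were called lower and none higher, 17 after the shift of medians and 6 with dim genes left out. Ifitm6, of the interferon-induced transmembrane family, was at 8.78 to 11.42 (median 10.13) in back and 3.82 to 5.08 (median 4.35) in tail skin (-5.76; limma adjusted p = 2.04e-86). Usp18, a protease that restrains interferon signalling, was at -2.76, also without overlap, the chemokine Cxcl9 at -2.16 and the guanylate-binding Gbp2 at -1.52. Among 49 chemokine genes 5 (10.2%) were higher and 6 (12.2%) lower, against 3.96% and 2.04% of all genes. They were led by Ccr4 (-2.61), a skin-homing receptor, and by Cxcr2 (1.88) and Ccl6 (1.82).

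Mast cell genes split. The proteases Tpsab1 (1.95), Tpsb2 (1.39) and Cpa3 (1.12) were higher, Cpa3 not under either scaling or in males alone (0.91). With Kit (1.07), the stem cell factor receptor, 4 of 20 list members were higher here, 2 after the shift of medians and 3 after quantile normalization. The receptor Mrgprb3 was at 8.38 to 10.82 (median 9.79) in back and 4.05 to 6.19 (median 4.75) in tail skin (-4.99; limma adjusted p = 3.54e-76), and the prostaglandin D synthase Hpgds was at -2.04. Both lay below every back array, so these mast cell list members and the proteases were in opposite directions.

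Other large decreases belonged to no list. Tspan8, a tetraspanin, was at 6.87 to 9.45 in back and 3.58 to 5.19 in tail skin (-3.97), the chloride channel accessory protein Clca3a1 was at -3.62, the pantetheinase Vnn1 at -3.16 and the anion exchanger Slc26a7 at -3.07. The gene models F830045P16Rik (-5.72) and AY036118 (-3.46) also lay below every back array. In peripheral nerve, Scn7a (-2.12) and Cdh19 (-1.87) were the 2 called of 16 (12.5%, against 2.04% of all genes lower). Among 28 guidance genes 3 (10.7%) were lower. These were the semaphorins Sema3d (-1.85) and Sema3e (-1.18, and -0.97 in the 10 mice with a back array of batch 2) and Gdnf (-1.13).

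Sebaceous gland genes went both ways, with 2 (9.09%) of 22 called higher and 4 (18.2%) lower. Among them Awat2 (-1.59), a wax ester synthase, Elovl5 (-1.31) and Scd3 (-1.21, but -0.44 and not called in the 10 mice with a back array of batch 2) were lower. Elovl3 (1.26) and Hsd3b6 (1.31) were higher. In the circadian clock 2 of 16 (12.5%) were higher, the repressors Bhlhe40 (2.21, without overlap) and Cry1 (1.29), and times of day are not given in the labels. Of 355 solute carriers 39 were higher and 9 lower, against 3.96% and 2.04% of all genes. The cystine exchanger Slc7a11 (3.34) and the amino acid transporter Slc7a8 (3.40) had the largest increases, and the nucleoside transporter Slc28a3 (2.54) and the glucose transporter Slc5a1 (2.25) were among the others.

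Among 303 measured microRNA genes 14 (4.62%) were called higher and 4 (1.32%) lower, shares near the 3.96% and 2.04% of all genes. Of the 18 called, 17 had a mature sequence in RefSeq. Their probe sets read the precursor or host transcript and do not tell the arms apart. The mature sequences of 8 called genes, chosen after their values were seen because they include known epidermal microRNAs and neighbouring pairs, are given with the seed, bases 2 to 8 from the 5' end, in capitals.
mmu-miR-203-3p: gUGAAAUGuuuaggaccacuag
mmu-miR-31-5p: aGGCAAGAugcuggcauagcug
mmu-miR-34a-5p: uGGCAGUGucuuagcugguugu
mmu-miR-23a-3p: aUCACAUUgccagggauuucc
mmu-miR-27a-3p: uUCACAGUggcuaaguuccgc
mmu-miR-24-3p: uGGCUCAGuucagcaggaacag
mmu-let-7c-5p: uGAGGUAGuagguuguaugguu
mmu-miR-99a-5p: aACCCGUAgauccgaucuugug

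No seed was shared among these 8. Mir203, whose product restrains basal keratinocyte proliferation, was at 3.41 to 5.86 (median 4.65) in back and 5.67 to 7.58 (median 6.58) in tail skin, higher in all 82 mice by 1.98 (limma adjusted p = 6.91e-46). Mir31 was higher by 1.83 without overlap and Mir34a, a target of p53, by 2.04 from a back level near the background. Mir23a (1.49), Mir27a (1.42) and Mir24-2 (1.02), which are neighbours on chromosome 8, were all higher, although Mir24-2 fell below the limit under either scaling (0.81 and 0.82) and without the mice of the 6 arrays least like their tissue (0.9998). Mirlet7c-1 (2.23, without overlap) and Mir99a (1.29) are likewise neighbours on chromosome 16. Mir150, abundant in lymphocytes, was lower by 1.15 (-1.15) and Mir101a was at -1.07; in the 10 mice with a back array of batch 2 these were -0.99 and -0.91.

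The tail minus back difference itself differed between the sexes in a small set of genes. With a call at an adjusted p under 0.05 and a difference between females and males of at least 0.5, 224 genes (1.19%) had a more positive difference in females and 33 (0.175%) in males. On the adjusted p alone, 4.33% of genes were more positive in females and 5.49% in males. In 148 of the 224 the gap between the sexes was larger in the back than in the tail, with a median female minus male level of -0.458 in back and 0.154 in tail skin. The 224 held 30 Krt and Krtap genes and the 33 held none. In 53 of the 224 and 7 of the 33, the mean difference was of opposite sign in the sexes.

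Some matrix genes with a sex difference differed on the back. In the lists, 2 of 35 collagens, 2 of 19 elastic fibre and 3 of 25 proteoglycan genes were called for it. All were more positive in females, where 1.19% of all genes were, and the genes given here are examples. The call was not particular to matrix genes. More positive in females were also 7 of 24 blood endothelial and 6 of 20 smooth muscle and pericyte genes. Lox was at 6.53 in female and 7.87 in male back skin but 9.48 and 9.55 in tail skin, which gave differences of 2.94 in females and 1.68 in males (limma adjusted p = 2.4e-05 for 1.26). The matrix metalloproteinase Mmp3 differed between tail and back by -0.66 in females and -2.05 in males. Ctsk, a collagen-degrading protease, was at 8.56 and 9.86 in female and male backs and at 9.02 and 9.06 in tails, so that its difference was 0.46 in females and -0.80 in males. Col1a1 likewise differed by 0.41 in females and -0.29 in males.

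A sex difference was called in 6 of 10 hard keratins and 8 of 12 inner root sheath genes, all more positive in females, where 1.19% of all genes were. In all 14 named keratins with this call the gap between the sexes was larger in the tail, where females were higher by 0.47 to 0.87, than on the back, where female minus male ran from -0.15 to 0.12. These keratins were picked by this same call. Back levels such as those of Krt86 and Krt28 below may be near the background of a probe set. A gap between the sexes could hardly appear there, so the back values cannot show that it is absent. Krt86 was at 4.72 and 4.86 in female and male backs and at 10.35 and 9.52 in tails, with differences of 5.63 and 4.66 (limma adjusted p = 0.0127 for 0.97). Krt27 had differences of 4.89 and 4.05 and Krt28 of 3.03 and 2.12, with back levels of 5.02 and 5.07 for Krt27 and of 4.35 and 4.45 for Krt28. Not called were Krt84 and Krt36: Krt84 had differences of 8.13 and 8.22 and Krt36 of 7.65 and 7.70. In Krt26, Krt32, Krt33a, Krt40, Krt73 and Krt74, as in Gpx3, Des, Gadl1 and Hsd3b6, the call was lost within the mice of back batch 1 and tail batch 4.

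More positive in males were Carns1, which makes carnosine, at -2.17 in females and -0.58 in males (limma adjusted p = 3.29e-13), and the steroid hydroxylase Cyp17a1, at 1.32 and 2.09. Both sexes had a Cyp17a1 level of 9.28 in tail skin and differed on the back, at 7.96 in females and 7.18 in males. The X-linked ferroxidase Heph differed by 0.18 in females and 0.87 in males, and the clock gene Per3 by 0.10 and 0.65.

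**Figure D5:**
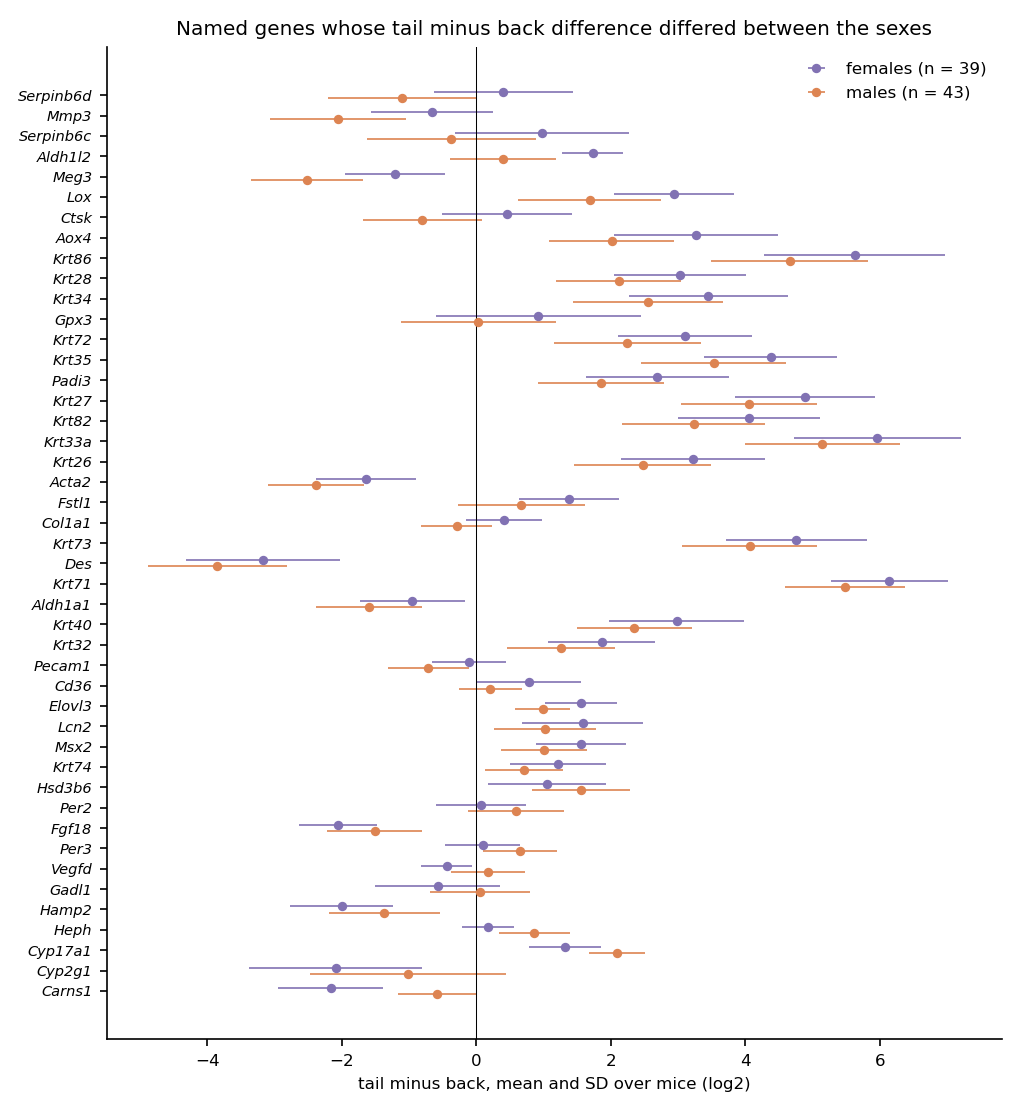
Mean and SD over mice of the tail minus back difference (log2) in females (purple) and males (orange) for the named genes called for a difference between the sexes, Y-linked genes left out, ordered by the female minus male value from Serpinb6d (1.50) at the top to Carns1 (-1.59) at the bottom. The SD bars of the sexes overlap in every gene but Aldh1l2 and Carns1.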

How the data were processed

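Whole skin RNA was measured on 1-colour mouse gene arrays. The deposited values are log2 expression levels made by the authors with RMA, per the submitters' processing notes; no source used here names its version or says whether batches were adjusted, and the number of arrays limits the precision. Of 35556 probe sets, 21218 carried 1 gene symbol, 1881 several and 12457 none in the platform annotation; 21185 were found in RefSeq by Entrez ID. The probe set with the highest mean stood for each of 1386 genes with several, leaving 18820 genes. Among 61 such genes that differed by at least 1, another probe set had the opposite sign in 10, in none by 1 or more.

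Tail minus back differences per mouse were tested with limma 3.58.1 in R 4.3.3 (lmFit, eBayes, intercept only) and Benjamini-Hochberg adjustment. The sex test compared these differences between females and males. Both were tested on simulated data: 200 of 200 planted genes were recovered for each, with 0 false calls among 18820 genes. The planted effects were above the size limits, the noise was independent between genes, and all other genes had no difference. This checks that the code runs as meant and says little about calls in the real data. Python 3.11.15, numpy 2.4.6, pandas 2.3.3, scipy 1.17.1 and matplotlib 3.10.9 did the rest. The brightness filter asked for a mean in the higher tissue above the median of all gene means (6.497) and left 9969 genes.

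Same-numbered arrays were taken to come from the same mouse. Over genes, deviations from the tissue means correlated at a median of 0.166 (from -0.173 to 0.377) within a mouse and -0.001 between mice, and above 0.1 in 61 of 82 mice. The tail correlated best with the back of its own number in only 23 of 82 mice. These values therefore do not establish the pairing of each single mouse.

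Members and the 56 gene lists (1226 of 1350 entries measured) were chosen with earlier results of these data known. Genes were named by size among called bright genes: the 15 largest differences in each direction, the 4 largest of each list (all in lists of 12 or fewer), the 8 widest spreads, the 8 largest sex differences in each direction, and called members of the regional and signalling lists. Others were chosen after their values were seen, among them microRNAs, Skint and solute carrier genes, family members and unchanged comparison genes. Close copies (Krtap, Sprr2, Serpinb3, Stfa, H2 and Skint genes) may share probes and are uncertain one by one.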

Additional observations from a re-analysis of the deposited data

Results flagged for a closer look

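The tail minus back difference differed between the sexes, by the test of that difference (limma, Benjamini-Hochberg), in 224 genes that were more positive in females and 33 that were more positive in males. The values below are the female minus male difference of the tail minus back difference, on the log2 scale, over 39 females and 43 males.

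Among hair keratins and other hair genes these values were Krt86 (0.97), Krt28 (0.91), Krt34 (0.89), Krt35 (0.85), Krt72 (0.85), Padi3 (0.84), Krt27 (0.83), Krt33a (0.82), Krt82 (0.82), Krt26 (0.75), Krt73 (0.69), Krt71 (0.66), Krt40 (0.63), Krt32 (0.60), Msx2 (0.55) and Krt74 (0.51). In the keratins Krt86, Krt27 and Krt28 the sexes differed in the tail and not by a like amount on the back. On the back, levels of Krt86 and Krt28 may be near the background, where a gap could hardly appear.

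Among other genes that were more positive in females the values were Serpinb6d (1.50), Mmp3 (1.39), Serpinb6c (1.35), Aldh1l2 (1.33), Meg3 (1.31), Aox4 (1.26), Ctsk (1.26), Lox (1.26), Gpx3 (0.89), Acta2 (0.74), Col1a1 (0.71), Fstl1 (0.71), Des (0.68), Aldh1a1 (0.65), Pecam1 (0.60), Cd36 (0.57), Elovl3 (0.57) and Lcn2 (0.56). The calls of Gpx3 and Des were lost within the mice of back batch 1 and tail batch 4 (0.81 and 0.66). Aldh1l2, a mitochondrial folate enzyme, had back levels of 5.64 in females and 7.12 in males and tail levels of 7.37 and 7.51.

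Among genes that were more positive in males the values were Carns1 (-1.59), Cyp2g1 (-1.07), Cyp17a1 (-0.77), Heph (-0.69), Hamp2 (-0.64), Gadl1 (-0.63), Vegfd (-0.62), Per3 (-0.56), Fgf18 (-0.55), Per2 (-0.53) and Hsd3b6 (-0.51). Gadl1 (-0.59) and Hsd3b6 (-0.43) were not called within the mice of back batch 1 and tail batch 4. The Y-linked genes Eif2s3y (-1.01), Kdm5d (-0.96) and Uty (-0.83) were in this set too, and females lack these genes.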

How the results depend on the processing

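Scaling moved the counts most. With arrays shifted to the same median, 491 genes were higher and 626 lower, 202 and 162 had every tail array above or below every back array, and 668 and 750 had the tail above or below the back in every mouse. With quantile normalization 172 genes lay below every back array, and 683 and 644 were above or below in every mouse. Calls were higher in 66.1% of cases as deposited, 44.0% after the shift and 50.3% after quantile normalization. Among named genes, 22 lost their call after the shift and 20 after quantile normalization, including Asns, Birc5, Col8a1, Cpa3, Gja1, Hoxa10, Kif11, Mir24-2, Sfrp2 and Wif1 under both, while Lgr5 (-0.86) became called under both (-1.07 and -1.10).

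Without the pairing by mouse (no replicate block) and with the replicate block as a random effect (consensus correlation 0.0807), 746 genes were higher and 383 lower, the same genes as with the block, and the sex counts without the block were 212 and 30. These fits give each gene the same mean difference, and the size limit carried the selection. The identical tail minus back calls are therefore no check of the pairing. Over the other settings, which were within 1.5 times of the main counts, 551 to 790 genes were higher and 264 to 406 lower, from limma's test against a fold limit at the low end to the mice of back batch 2 and males at the high end. The setting without the mice of the 6 arrays least like their tissue was chosen after seeing the data and gave 729 and 373. No gene was called in the opposite direction in any of these settings.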
